A study of Mus musculus with 8 samples.

Results

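Fatty acid oxidation was examined through 35 genes of mitochondrial and peroxisomal β- and α-oxidation in the liver of db/db mice treated with control or AF1 peptide. The genes were chosen by symbol, and all 35 were found among the 21532 genes measured. Of these, 20 were grouped here as mitochondrial and 15 as peroxisomal. All 35 passed the filter (a mean normalized count of at least 10) that left 15989 genes for testing. The db/db mice lack a functional leptin receptor and become obese and diabetic, and all 8 mice were male and carried this genotype, so neither group stands for a lean or healthy liver. Starting at 8 weeks of age, 4 mice received AF1 peptide and 4 mice received control, at 5 mg/kg body weight by retro-orbital injection, 2 times per week over 5 weeks. AF1 peptide is derived from estrogen receptor α (ERα) and carries a TAT sequence, which lets peptides enter cells. What the control treatment consisted of, and whether the mice had been fed when these livers were taken, is not given in the sources used here. One library was made per mouse, and the values are normalized counts, the reads of a gene after division by the size factor of its library.

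Mitochondrial β-oxidation shortens the acyl chains of most dietary and stored fatty acids. Chains are carried into the matrix as carnitine esters, and each turn of the cycle then runs through a dehydrogenase, a hydratase, a second dehydrogenase and a thiolase, with electrons passed on through the electron transfer flavoprotein. Peroxisomes handle very long, branched and dicarboxylic chains, start with an oxidase that yields hydrogen peroxide, and send shortened products on as carnitine esters. In liver, many of these genes are targets of the fatty acid-sensing nuclear receptor PPARα, and oxidation in hepatocytes supplies the acetyl-CoA for ketone bodies. Some of the enzymes grouped here with one organelle, such as Crat, Eci2 and Ech1, have been found in both.

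Recovered depth was 23031880 to 45117528 reads per mouse. The library of AF1 peptide replicate 1 stood apart from the other 7. It was below all of them in 3741 of the 15989 tested genes and above all of them in 4144. Its summed normalized count of 5 hepatocyte markers was 1620476, compared with 2057159 to 2481521 in the other mice, and that of 6 Kupffer cell markers was 1946, compared with 4341 to 5473. The stellate cell (4251), bile duct cell (803), red blood cell (27111) and adipocyte (11) marker sums of this library were also the lowest of all mice. Only 2 of the 5 listed adipocyte markers were measured, and 1 of these passed the filter. Their sum was low in every mouse (20 to 104 in the others). Its endothelial cell sum (4622) lay within the range of the others. No measured marker of these lists was at 0 in all mice, and the hepatocyte markers were high in every library, as the tissue label says. The part of these differences in the values of single genes was not tested. Changes that passed, turned sign or moved by over 1.5 times once that mouse was left out are given with all 8 mice and without it. In whole tissue, fewer cells of a type and less RNA per cell cannot be told apart.

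The 4 AF1 peptide mice were compared with the 4 control mice by limma on log2(normalized count + 1). At an unadjusted p under 0.05, the threshold in the study's methods, 2 of the 35 genes fell and none rose. The genes that fell were Crot and Ehhadh, both peroxisomal. The study's volcano plot coloured genes that changed over 1.3-fold, and with that rule added none of the 35 passed. Among all tested genes 484 fell (3.03%) and 506 rose (3.16%), so the count of 2 (5.71%) stood near this background. When libraries were scaled to equal totals instead, 769 genes fell and 129 rose. No tested gene passed at an adjusted p under 0.05 (0% of 15989), and the adjusted p of Crot and of Ehhadh was 0.763. With edgeR on the recovered reads, 479 genes fell and 557 rose at an unadjusted p under 0.05, and none passed after adjustment. With DESeq2, 446 fell, 562 rose and 3 passed after adjustment, none of them among the 35. In 27 of the 35 genes the fitted change was negative, with a median log2 fold change of -0.13, whereas 51.8% of all tested genes had a negative change and their median was -0.0083. Under equal totals 4 further genes (Cpt2, Eci2, Phyh and Amacr) had negative changes. Changes of single genes are given below as log2 fold changes of AF1 peptide minus control with their SE, and levels as normalized counts, whose group means carry the SD of 4 mice. No gene of the 35 had all 4 AF1 peptide mice below all 4 control mice (1.85% of all genes did) or above them (2.05%).

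**Figure D1:**
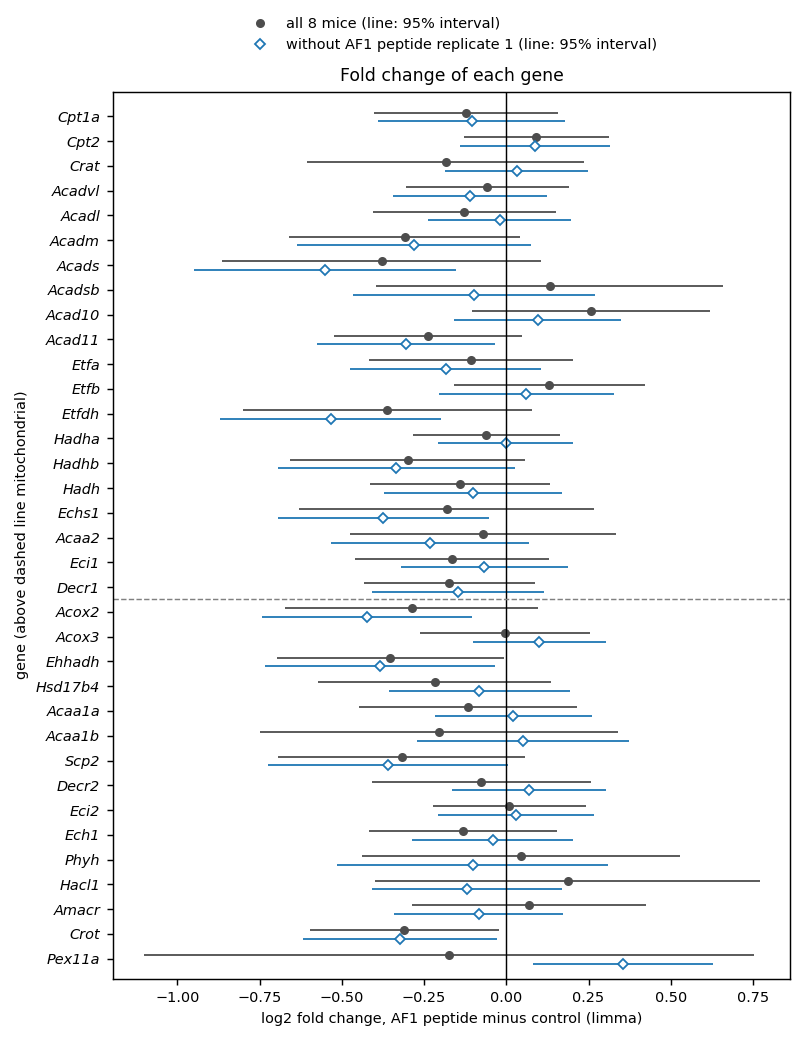
The horizontal axis gives the limma log2 fold change of each gene (AF1 peptide minus control) with its 95% interval, in grey for all 8 mice and in blue without AF1 peptide replicate 1; mitochondrial genes are above the dashed line. Most points lie left of 0, the grey intervals of Crot and Ehhadh exclude 0, and Pex11a moves from -0.17 to 0.35 once that mouse is left out.

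Without AF1 peptide replicate 1, 7 of the 35 genes fell (20%) and 1 rose (2.86%), compared with 5.48% and 4.58% of all tested genes and again 0% after adjustment. Those that fell were Acads, Etfdh, Echs1 and Acad11 of the genes grouped here as mitochondrial, and Acox2, Ehhadh and Crot of those grouped as peroxisomal. The gene that rose was Pex11a. With 4 mice against 3, 25 of the 35 changes were negative, and the median was -0.10. Of these fits, Crot and Ehhadh passed in both, and the other 6 passed only in the one without that mouse. AF1 peptide replicates 2 to 4 were below all 4 controls in Etfdh and above all of them in Pex11a, which is 1 gene (2.86%) in each direction, compared with 4.80% and 4.35% of all tested genes.

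**Figure D2:**
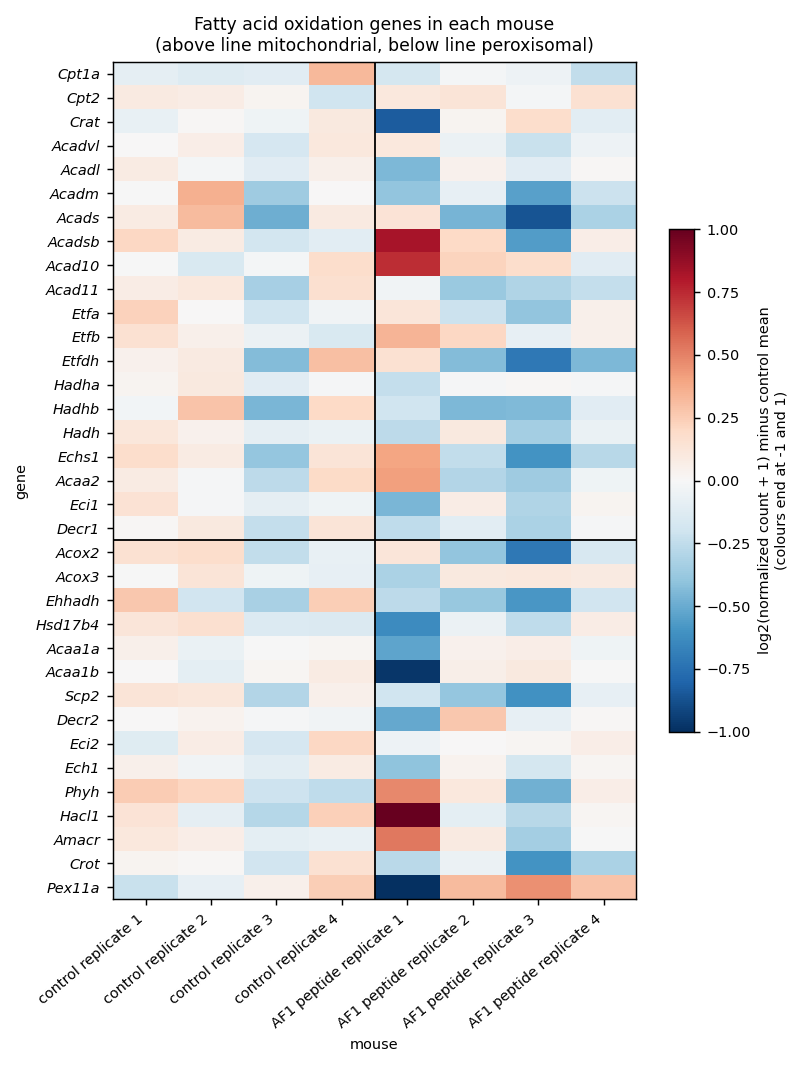
Each row is a gene and each column a mouse, and the colour gives log2(normalized count + 1) minus the mean of the 4 control mice, red above and blue below that mean, with the scale ending at -1 and 1. The column of AF1 peptide replicate 1 holds both the deepest blue (Pex11a) and the deepest red (Hacl1), and the columns of AF1 peptide replicate 3 and control replicate 3 are blue in most rows.

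Levels of the genes spanned a wide range in control liver when set per kb of the longest coding transcript. The peroxisomal thiolase gene Acaa1b was at the top with 38533 ± 1988 normalized counts per kb (SD, n = 4), followed by Phyh at 21696 ± 3995. Phyh encodes the hydroxylase that opens α-oxidation of phytanic acid. Next came Etfb, Scp2, Acaa2, Ech1 and Acaa1a, between 16256 and 11106 per kb, and the ranges of each pair of neighbours in this stretch overlapped among control mice. Acad10, Acox3 and Acadsb were lowest, at 205 ± 19, 207 ± 13 and 264 ± 32 per kb, and Acad10 and Acox3 did not differ beyond their spread. In AF1 peptide mice, Acaa1b was again the highest at 34820 ± 10212 per kb, the large SD coming with a value of 19613 in replicate 1. Several of these levels rest on sequence that other genes share. The share of 50-base words also found in another gene's transcripts was 44.8% for Etfb (with Gm45233), 39.6% for Acaa1b (mostly Acaa1a), 30.1% for Hacl1, 29.7% for Scp2 (with the pseudogene Scp2-ps2), 26.9% for Acadvl (with Dvl2 on the opposite strand) and 19.7% for Hadhb. For Ehhadh, Acads, Acox2, Pex11a, Acaa2 and Phyh it was 0%, and for Crot 4.72%.

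**Figure D3:**
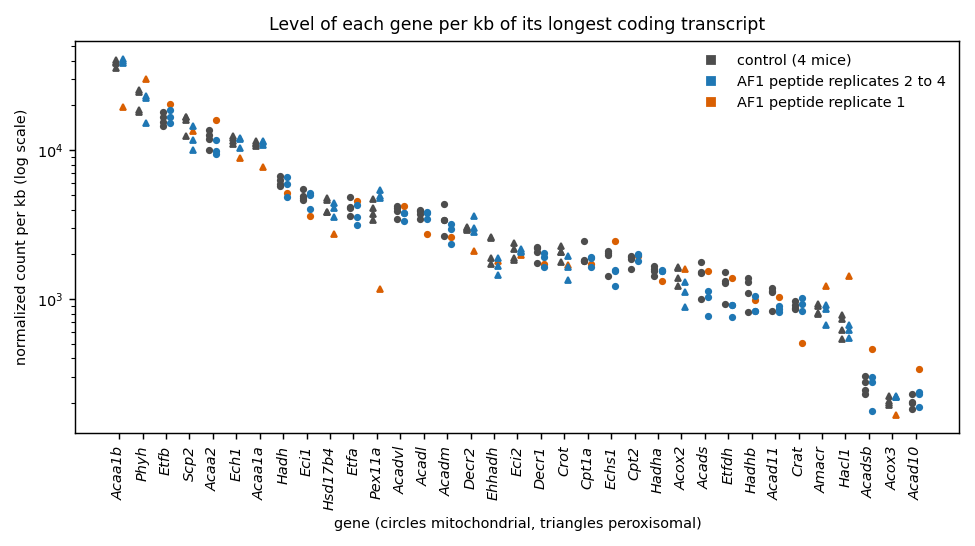
Normalized count per kb of the longest coding transcript (log axis) in each mouse, with genes ordered by their control mean, circles for mitochondrial and triangles for peroxisomal genes. Levels run from 38533 per kb in control liver for Acaa1b to 205 for Acad10, and the orange points of AF1 peptide replicate 1 leave the other points most in Pex11a, Acaa1b and Hacl1.

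The carnitine acyltransferases of mitochondria did not pass the test. Cpt1a encodes the outer-membrane enzyme that controls the rate at which long chains enter, and it was measured at 7938, 7736, 7822 and 10577 in control replicates 1 to 4 and at 7479, 8336, 8136 and 7133 in AF1 peptide replicates 1 to 4. Control replicate 4 was far above the other 3 controls, and the remaining controls lay within the AF1 peptide range. The log2 fold change of Cpt1a was -0.12 ± 0.13 (SE, limma adjusted p = 0.849), with a 95% interval of -0.40 to 0.16, and it was -0.10 without AF1 peptide replicate 1. Without control replicate 4 it was -0.01. Cpt2, the inner-membrane partner that returns the chain to CoA, gave 0.09 ± 0.10 (adjusted p = 0.854), a sign that turned when libraries were scaled to equal totals (-0.0006). Crat, which moves short acyl groups between CoA and carnitine, averaged 3824 ± 201 in control mice (SD, n = 4). It was 2143 in AF1 peptide replicate 1 and between 3546 and 4304 in the other AF1 peptide mice. Its log2 fold change was -0.18 ± 0.19 (adjusted p = 0.849) with that mouse and 0.03 without it.

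The acyl-CoA dehydrogenases carry out the first step of each turn and divide the work by chain length. For the very-long-chain and long-chain enzymes Acadvl and Acadl the log2 fold changes were -0.06 ± 0.11 and -0.13 ± 0.12, and neither passed. Without AF1 peptide replicate 1 they were -0.11 and -0.02. Acadm, the medium-chain enzyme, was at 6986, 8935, 5449 and 7014 in the control mice and 5319, 6597, 4793 and 6024 in the AF1 peptide mice. Both lowest values belonged to AF1 peptide mice, but control replicate 3 lay among them. The log2 fold change of Acadm was -0.31 ± 0.16 (95% interval -0.66 to 0.04, adjusted p = 0.763). Acads, the short-chain enzyme, had the most negative change of the 35 genes, -0.38 ± 0.22 (95% interval -0.86 to 0.10, adjusted p = 0.772). Its normalized counts were 2799, 3308, 1887 and 2826 in control mice and 2911, 1920, 1453 and 2125 in AF1 peptide mice. AF1 peptide replicate 1 sat among the higher controls, and control replicate 3 below AF1 peptide replicates 2 and 4. Without AF1 peptide replicate 1, Acads fell by 0.55 on the log2 scale (SE 0.18, 95% interval -0.95 to -0.15, adjusted p = 0.473).

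Among the less classical dehydrogenases, Acad11, which acts on long-chain substrates including hydroxylated ones, averaged 3672 ± 535 in control and 3098 ± 322 in AF1 peptide mice. Its log2 fold change was -0.24 ± 0.13 (adjusted p = 0.763) with all mice, and without AF1 peptide replicate 1 it fell by 0.31 on the log2 scale (adjusted p = 0.485). Acadsb acts on short branched chains from isoleucine. Its change was 0.13 ± 0.24 with all mice and -0.10 without AF1 peptide replicate 1, and AF1 peptide replicate 1 had the highest value of all mice (2828, others 1085 to 1843). Acad10 gave 0.26 ± 0.16 (adjusted p = 0.779), the most positive fitted change of the 35 genes with all mice. Again AF1 peptide replicate 1 was highest (1304, others 704 to 910), and without it the change was 0.10.

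Electrons from these dehydrogenases pass to the electron transfer flavoprotein, a pair of subunits encoded by Etfa and Etfb, and on to its membrane-bound oxidoreductase, encoded by Etfdh. Etfdh was at 3039, 3152, 2193 and 3631 in control mice and at 3293, 2183, 1801 and 2162 in AF1 peptide mice. AF1 peptide replicates 2 to 4 were below every control, with control replicate 3 only just above them, while replicate 1 was higher than 3 of the 4 controls. The log2 fold change was -0.36 ± 0.20 (95% interval -0.80 to 0.08, adjusted p = 0.765) with all 8 mice, and without replicate 1 Etfdh fell by 0.53 on the log2 scale (SE 0.15, 95% interval -0.87 to -0.20, adjusted p = 0.452), the smallest p of the 35 genes in these 2 fits. Etfa and Etfb gave -0.11 ± 0.14 and 0.13 ± 0.13 (-0.18 and 0.06 without replicate 1), and neither passed. The ratio of Etfa to Etfb within a mouse was 0.401 ± 0.033 in control and 0.341 ± 0.044 in AF1 peptide mice, a log2 difference of -0.24, and 3 of 4 AF1 peptide mice were below all controls. A two-sided exact permutation test gave p = 0.0857 (adjusted over 2 ratios p = 0.171), with 0.0286 the smallest value possible with these groups. The Etfb part of this ratio carries the large shared share of sequence given above.

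The mitochondrial trifunctional protein joins hydratase, dehydrogenase and thiolase activities for long chains, with α subunits from Hadha and β subunits from Hadhb. Hadha was at 6380, 6704, 5783 and 6220 in control mice and 5320, 6225, 6309 and 6225 in AF1 peptide mice. AF1 peptide replicates 2 to 4 were nearly equal and inside the control range, and replicate 1 was the lowest of all mice. The log2 fold change of Hadha was -0.06 ± 0.10 (adjusted p = 0.910), and its interval was -0.28 to 0.16. Without replicate 1 the change was -0.0024. Hadhb was at 2269, 2832, 1691 and 2661 in control mice and 2021, 1700, 1710 and 2139 in AF1 peptide mice, and the lowest value of all 8 belonged to control replicate 3. Its log2 fold change was -0.30 ± 0.16 (adjusted p = 0.763), and of the alternatives run it passed only without control replicate 3 (-0.45). The Hadha to Hadhb ratio was 2.73 ± 0.51 in control and 3.22 ± 0.53 in AF1 peptide mice, a log2 difference of 0.24 (two-sided exact permutation test, p = 0.2, adjusted over 2 ratios p = 0.2).

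The start sites of Hadha and Hadhb lie head to head on mouse chromosome 5, 273 bases apart in RefSeq annotation of GRCm38.p6, so the 250 bases before the Hadhb start site are shown as the stretch that separates these subunit genes (chr5:30155003-30155252, plus strand, 5′ to 3′). Capitals mark GGGCGG, the core of a GC box, on either strand.
Hadhb: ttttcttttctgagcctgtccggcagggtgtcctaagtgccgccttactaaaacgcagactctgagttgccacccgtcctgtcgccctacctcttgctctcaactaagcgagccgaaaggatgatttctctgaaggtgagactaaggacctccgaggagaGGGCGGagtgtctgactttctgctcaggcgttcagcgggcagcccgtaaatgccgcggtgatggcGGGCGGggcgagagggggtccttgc

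None of the other enzymes of the mitochondrial cycle passed with all 8 mice. Hadh, the short-chain hydroxyacyl-CoA dehydrogenase, gave -0.14 ± 0.12. Echs1, the short-chain hydratase, gave -0.18 ± 0.20 (adjusted p = 0.856) with all mice. AF1 peptide replicate 1 had the highest Echs1 value (3821), above the control range of 2215 to 3278, and the other AF1 peptide mice lay between 1915 and 2447. Without replicate 1, Echs1 fell by 0.37 on the log2 scale (SE 0.15, adjusted p = 0.483). Acaa2, the mitochondrial thiolase, followed the same order: 24319 in AF1 peptide replicate 1, 15266 to 20864 in controls and 14283 to 17702 in the other AF1 peptide mice. Its change was -0.07 ± 0.18 (adjusted p = 0.946) with all mice and -0.23 (adjusted p = 0.586) without that mouse. Eci1 and Decr1, which rearrange the double bonds of unsaturated chains so that they can enter the cycle, gave -0.16 ± 0.13 and -0.17 ± 0.12, and neither passed. Without AF1 peptide replicate 1 they were at -0.07 and -0.15.

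**Figure D4:**
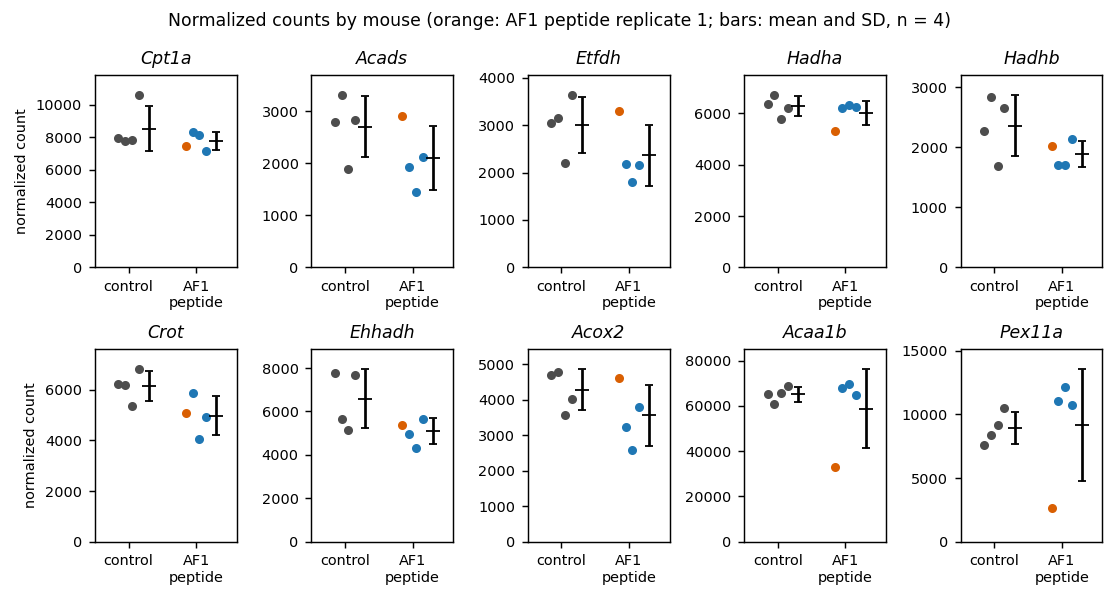
Normalized counts of 10 genes in each mouse (grey control, blue AF1 peptide, orange AF1 peptide replicate 1), with the mean and SD of each group of 4 as bars and all axes starting at 0. Crot and Ehhadh are lower in AF1 peptide mice with overlapping groups, the groups of Etfdh separate only when the orange point is set aside, and in Pex11a the orange point (2611) lies far below the other 7 mice.

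In peroxisomes, Crot passed with the smaller p of the 2 genes that fell. It encodes carnitine O-octanoyltransferase, which prepares medium-length products of peroxisomal oxidation for export to mitochondria. Crot was at 6228, 6175, 5353 and 6798 in control mice and 5071, 5883, 4036 and 4923 in AF1 peptide mice. AF1 peptide replicates 1, 3 and 4 were below all controls, and replicate 2 was above the lowest control only. Crot fell by 19.3%, a log2 fold change of -0.31 ± 0.13 (limma adjusted p = 0.763), with a 95% interval of -0.60 to -0.02. Without AF1 peptide replicate 1 it was -0.32 (adjusted p = 0.485). When AF1 peptide replicate 3 was left out instead, the change was -0.21 and the call was lost, and leaving out control replicate 1, 2 or 4 or AF1 peptide replicate 4 also ended it (-0.26 to -0.31).

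Ehhadh, the peroxisomal bifunctional enzyme that performs the hydratase and dehydrogenase steps and a widely used PPARα target, was at 7793, 5664, 5158 and 7679 in control mice. In AF1 peptide mice it was at 5395, 4973, 4325 and 5668. Controls split into a higher pair (replicates 1 and 4) and a lower pair (2 and 3), and the AF1 peptide mice lay around the lower pair. Ehhadh fell by 21.7%, a log2 fold change of -0.35 ± 0.16 (limma adjusted p = 0.763), with a 95% interval of -0.70 to -0.0065. It was -0.38 (adjusted p = 0.485) without AF1 peptide replicate 1. The call was lost without control replicate 1 (-0.26), control replicate 4 (-0.27), AF1 peptide replicate 2 (-0.34) or AF1 peptide replicate 3 (-0.28). The second bifunctional enzyme, Hsd17b4, which also serves bile acid intermediates and branched chains, averaged 11450 ± 1311 in control and 9954 ± 1980 in AF1 peptide mice, a change of -0.22 ± 0.16 (adjusted p = 0.796). AF1 peptide replicate 1 was lowest (7383), and without it the change was -0.08.

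Since Crot and Ehhadh were the genes that passed, their promoters are shown as the 250 bases before the RefSeq start site (GRCm38.p6, 5′ to 3′ on the minus strand, which is the strand of each gene), at chr5:8997147-8997396 and chr16:21787835-21788084. That of Pex11a (chr7:79743132-79743381, minus strand) is added because it went against them in AF1 peptide replicates 2 to 4. Capitals mark CCAAT and GGGCGG on either strand, so that ATTGG and CCGCCC count as matches.
Crot: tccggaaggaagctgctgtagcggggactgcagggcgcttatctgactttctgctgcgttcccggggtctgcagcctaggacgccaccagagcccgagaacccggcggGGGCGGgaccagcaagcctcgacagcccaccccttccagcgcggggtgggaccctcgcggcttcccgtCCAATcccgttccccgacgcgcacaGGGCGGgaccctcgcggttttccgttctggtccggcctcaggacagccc
Ehhadh: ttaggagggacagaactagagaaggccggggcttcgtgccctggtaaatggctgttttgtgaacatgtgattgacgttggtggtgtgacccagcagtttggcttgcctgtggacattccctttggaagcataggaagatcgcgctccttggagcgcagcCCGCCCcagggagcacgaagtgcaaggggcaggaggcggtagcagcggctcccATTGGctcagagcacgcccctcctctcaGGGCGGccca
Pex11a: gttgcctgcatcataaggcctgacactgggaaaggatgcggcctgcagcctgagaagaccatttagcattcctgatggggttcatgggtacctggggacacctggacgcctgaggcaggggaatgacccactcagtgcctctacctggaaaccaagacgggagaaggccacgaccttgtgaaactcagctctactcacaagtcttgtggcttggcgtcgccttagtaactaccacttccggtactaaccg

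Crot and Ehhadh each held 1 CCAAT and 2 GGGCGG, and Pex11a held neither. Promoters of 1 chromosome were left out of the search. On the other chromosomes, RefSeq promoters were matched for 30 of the 35 genes, with 31 promoters in all. GGGCGG was found in 20 of the 31 (64.5%), compared with 32.7% of all 32851 promoters of the same length on the searched chromosomes. CCAAT was found in 13 (41.9%, all promoters 33.8%), and AGGTCA, the half-site of many nuclear receptors, in 5 (16.1%, all promoters 14.0%). A direct repeat of the half-site AGGNCA with a 1-base spacer, the arrangement read by PPARα (AGGTCA is one form of this half-site), was found in 0 of 31, compared with 0.338% of all promoters. At so low a share, 0 of 31 cannot tell these promoters from the rest. A match is a match of letters only, and these windows end 250 bases before the start site.

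The acyl-CoA oxidase Acox2, which works on branched chains and bile acid intermediates, was at 4713, 4793, 3584 and 4036 in control mice. It was at 4615, 3233, 2585 and 3812 in AF1 peptide mice, of which replicates 2 and 3 were below all controls. The log2 fold change was -0.29 ± 0.17 (adjusted p = 0.774), and without AF1 peptide replicate 1 Acox2 fell by 0.42 on the log2 scale (SE 0.14, adjusted p = 0.473). Acox3, a branched-chain oxidase with a low level in this liver, averaged 822 ± 53 in control mice. It was 660 in AF1 peptide replicate 1 and between 873 and 886 in the other AF1 peptide mice. Its fitted change with all mice was close to 0 and differed in sign between limma (-0.0038) and edgeR (0.0035), and it was 0.10 without that mouse.

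Thiolases end each peroxisomal turn. Acaa1b was at 65254, 60604, 65740 and 68730 in control mice and at 33127, 67667, 69742 and 64710 in AF1 peptide mice. AF1 peptide replicates 2 to 4 were level with the controls, and replicate 1 was lower than every other mouse. The change was -0.20 ± 0.25 (adjusted p = 0.866) with all mice and 0.05 without replicate 1. Its near copy Acaa1a showed the same order, with 13572 in AF1 peptide replicate 1 and 18719 to 20449 in the other 7 mice and a change of -0.12 ± 0.15 that became 0.02 without that mouse, and reads of these genes may not be fully separable. Scp2, which encodes a peroxisomal thiolase together with a sterol carrier protein, averaged 40824 ± 5237 in control and 32824 ± 5068 in AF1 peptide mice. Its change was -0.32 ± 0.17 (adjusted p = 0.763) in limma, and it passed at the unadjusted threshold in DESeq2 on the recovered reads (adjusted p = 0.770).

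The auxiliary enzymes Decr2, Eci2 and Ech1, which handle double bonds, gave log2 fold changes of -0.08 ± 0.15, 0.01 ± 0.10 and -0.13 ± 0.13. The sign for Eci2 turned under equal totals (-0.08). Decr2 and Ech1 were lowest in AF1 peptide replicate 1, at 4659 and 11266. Without that mouse the changes of Decr2, Eci2 and Ech1 were 0.07, 0.03 and -0.04. The genes of α-oxidation and of the racemase step, which deal with methyl-branched chains, had positive fitted changes that came with the same mouse. Hacl1, the lyase that releases formyl-CoA, was at 1932, 1650, 1437 and 2068 in control mice and at 3760, 1642, 1449 and 1774 in AF1 peptide mice, so that replicates 2 to 4 lay inside the control range. Its change was 0.19 ± 0.26 (adjusted p = 0.893) with all mice and -0.12 (adjusted p = 0.779) without replicate 1. Phyh and Amacr gave 0.04 ± 0.22 and 0.07 ± 0.16, both highest in AF1 peptide replicate 1 (42999 and 3172), and both turned negative without it (-0.10 and -0.08) and under equal totals (-0.05 and -0.02).

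Pex11a, a PPARα-inducible membrane protein that takes part in division of peroxisomes, had the largest SE of the 35 genes. It was at 7588, 8353, 9155 and 10505 in control mice and 2611, 11019, 12147 and 10751 in AF1 peptide mice. AF1 peptide replicates 2 to 4 were above every control, and replicate 1 was below every mouse. With all mice the log2 fold change was -0.17 ± 0.42 (adjusted p = 0.940), with an interval of -1.10 to 0.75. Both edgeR and DESeq2 gave 0.04, of the opposite sign. Without replicate 1, Pex11a rose by 0.35 on the log2 scale (SE 0.12, 95% interval 0.08 to 0.63, adjusted p = 0.473). No part of the Pex11a transcript was shared with another gene.

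The genes also varied together between mice of the same group. AF1 peptide replicate 3 had the lowest value of all 8 mice in 16 of the 35 genes (45.7%), compared with 17.9% of all tested genes, and AF1 peptide replicate 1 in 11 (31.4%, all genes 23.4%). AF1 peptide replicate 3 was lowest in 10 of 20 mitochondrial and 6 of 15 peroxisomal genes, and replicate 1 in 4 and 7. The median difference of the mitochondrial genes from their control means was 0.08, 0.07, -0.17 and 0.10 on the log2 scale in control replicates 1 to 4 and 0.03, -0.04, -0.31 and -0.06 in AF1 peptide replicates 1 to 4. For the peroxisomal genes it was 0.05, 0.03, -0.14 and 0.05 in controls and -0.27, 0.04, -0.26 and 0.01 in AF1 peptide mice. Control replicate 3 was thus the low control in both organelles, and AF1 peptide replicate 3 the low mouse of its group for mitochondrial genes. The share of reads from 13 genes of the mitochondrial genome was 29.2, 26.8, 34.3 and 22.4% in controls and 20.8, 37.8, 34.3 and 36.1% in AF1 peptide mice. It was thus the highest of its group in control replicate 3 and the lowest of all in AF1 peptide replicate 1, and its part in the values of the 35 genes was not tested. The 35 genes together made up 0.806 to 1.16% of all reads of a library.

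**Figure D5:**
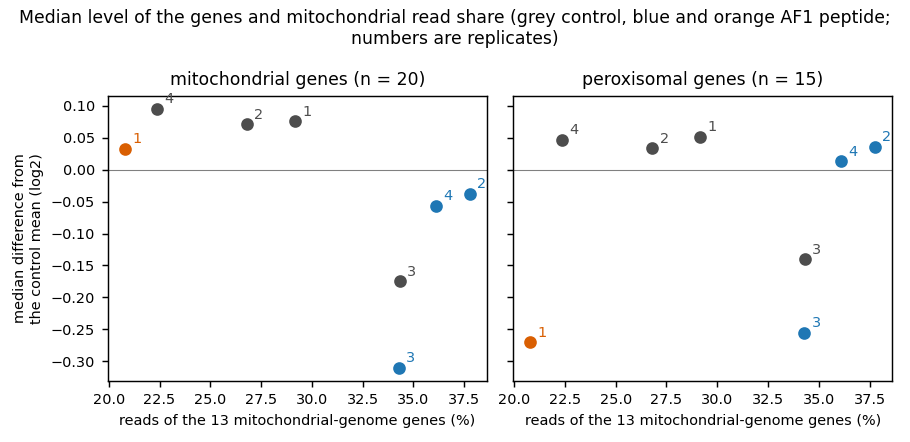
Each point is a mouse (grey control, blue AF1 peptide, orange AF1 peptide replicate 1, numbers are replicates); the horizontal axis gives the percentage of reads from 13 mitochondrial-genome genes and the vertical axis the median log2 difference of 20 mitochondrial (left) or 15 peroxisomal genes (right) from their control means. AF1 peptide replicate 3 (-0.31) and control replicate 3 (-0.17) are the lowest points on the left, and AF1 peptide replicates 1 (-0.27) and 3 (-0.26) on the right.

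Described by organelle, 16 of 20 mitochondrial genes and 11 of 15 peroxisomal genes had negative fitted changes, and both medians were -0.13. Without AF1 peptide replicate 1 these counts were 16 and 9, and the medians -0.11 and -0.08. Within the mitochondrial genes the hydratases, dehydrogenases and thiolases that follow the first step (Hadha, Hadhb, Hadh, Echs1 and Acaa2) were negative in 5 of 5, with a median of -0.14 that became -0.23 without that mouse. The peroxisomal bifunctional enzymes and thiolases (Ehhadh, Hsd17b4, Acaa1a, Acaa1b and Scp2) were also negative in 5 of 5, with a median of -0.22 that became -0.08. Without that mouse Acaa1a (0.02) and Acaa1b (0.05) were positive. The group of α-oxidation and the racemase (Phyh, Hacl1 and Amacr) went the other way, with 0 of 3 negative and a median of 0.07 that became -0.10. Of all tested genes 51.8% had a negative change.

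Genes around the pathway were followed in 4 further lists. Among all tested genes 3.03% fell and 3.16% rose, and the counts of these lists stood near this background. Of the list on entry and carnitine supply, 11 of 12 genes were tested and none passed in either direction. Its carnitine-acylcarnitine carrier Slc25a20 gave -0.06 ± 0.14 (adjusted p = 0.934), and 0.06 without AF1 peptide replicate 1. Of 18 further acyl-CoA enzymes, 1 rose and none fell. This was Eci3, an enoyl-CoA isomerase, with 98, 97, 155 and 27 in control mice and 241, 175, 128 and 202 in AF1 peptide mice, a log2 fold change of 1.18 ± 0.45 (adjusted p = 0.763). Of 40 tested genes of the peroxisome membrane, its import machinery and other matrix enzymes, 2 rose and none fell. Abcd4, an ABC transporter, was at 407 to 460 in control and 458 to 541 in AF1 peptide mice (0.26 ± 0.10, adjusted p = 0.763), and the acyl-CoA thioesterase Acot3 was at 1417 to 3255 and 2685 to 3687 (0.58 ± 0.23, adjusted p = 0.763). Abcd3, which carries fatty acyl-CoA into peroxisomes, and Cat, which removes hydrogen peroxide, gave -0.13 ± 0.12 and -0.11 ± 0.19.

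The fourth list held regulators and other targets of PPARα. Of its 24 tested genes 1 rose and none fell (all tested genes 3.16% and 3.03%). Esrra, which encodes the estrogen-related receptor α, was at 1574, 1746, 1743 and 1629 in control mice and 2083, 1967, 2031 and 1794 in AF1 peptide mice. All 4 AF1 peptide mice were thus above all controls, as in 2.05% of all tested genes. The log2 fold change of Esrra was 0.23 ± 0.09 (adjusted p = 0.763), and 0.21 without AF1 peptide replicate 1. Ppara itself gave -0.03 ± 0.13 (0.08 without that mouse), at 5534 to 6890 in control and 4754 to 6805 in AF1 peptide mice. The coactivator gene Ppargc1a was at 110 to 130 in control mice and at 324, 205, 95 and 129 in AF1 peptide mice (0.46 ± 0.32, adjusted p = 0.786, and 0.15 without AF1 peptide replicate 1). The targets Pdk4 and Fgf21 gave -0.55 ± 0.39 and -0.88 ± 0.65, and neither passed. Both had their lowest value in AF1 peptide replicate 1, which for Fgf21 was 81 against 470 to 1209 in the other mice, and without that mouse the changes were -0.07 and -0.11. Cyp4a14, an ω-hydroxylase gene, gave 0.09 ± 0.20 (adjusted p = 0.935), and 0.14 without that mouse.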

How the data were processed

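Stranded mRNA libraries were prepared from TRIzol-extracted liver RNA of 8 mice. Per the submitters' processing notes, reads were trimmed with Trim Galore 0.6.7, aligned with HISAT2 to mm39 and sorted with SAMtools 1.17, and per the paper they were counted per gene with GenomicAlignments. The annotation, the use of strand and the treatment of reads with several matches are not given in the sources used here. The authors deposited a signal, the normalized count (reads over the size factor of the library), for each gene, and 100% of 172256 values came out as whole reads within 0.01.

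Groups came from the sample labels, and the mice are labelled as biological replicates. The groups were compared by limma 3.58.1 (R 4.3.3, intensity trend) on log2 of the normalized count plus 1, over genes with a mean of at least 10. P-values were adjusted by Benjamini-Hochberg over all tested genes. Fold changes on this scale understate changes of low genes. The procedure was tested on simulated counts with changes larger than those fitted for the 35 genes and with no mouse set apart. That test therefore does not cover changes of the size reported here. The 35 genes, the related lists and the tests were chosen with earlier results of these data known. Every listed gene of the pathway is named, and of the related lists the genes that passed, together with genes set as landmarks (Ppara, Ppargc1a, Slc25a20, Abcd3, Cat, Pdk4, Fgf21 and Cyp4a14). Some genes of the related lists are not reported here. Alternatives were pseudocounts of 0.5 and 5, no filter or a minimum of 10 in every mouse, TMM or equal-total scaling, limma without trend or moderation, a replicate block, edgeR 4.0.16 and DESeq2 1.42.0 on recovered reads, a 1.3-fold rule, and each mouse left out in turn. Leaving mice out of the 2 subunit ratios was added after seeing the data. Lengths and shared 50-base words came from GENCODE M21 transcripts and promoters from RefSeq (GRCm38.p6), which is not the build of the table. The coordinates of the printed promoters are of GRCm38.p6, and no coordinates on the build of the table are given.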

Additional observations from a re-analysis of the deposited data

Results flagged for a closer look

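Within each group of 4 mice, the gap of the highest or lowest mouse to its nearest neighbour was divided by the range of the group and compared with Dixon's critical value. Of 82 groups compared, 8 had a mouse apart, and chance alone gives about 4.1. AF1 peptide replicate 1 was that mouse in 5 of the 8. It was lowest in Hadha (5320, Dixon's ratio 0.915), Acox3 (660, ratio 0.946), Acaa1b (33127, ratio 0.863) and Pex11a (2611, ratio 0.854), and highest in Hacl1 (3760, ratio 0.859). The same library had the lowest hepatocyte, Kupffer cell, stellate cell, bile duct cell and red blood cell marker sums. Its adipocyte sum, from 2 measured markers at low counts, was also the lowest. The part of these sums in the values above was not tested.

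Among controls, replicate 4 was highest in Cpt1a (10577, ratio 0.929). This library also had the highest sum of 5 red blood cell markers (123375, other mice 27111 to 51923), whose part in the Cpt1a value was not tested. Control replicate 3 was lowest in the summed normalized counts of the mitochondrial genes (109402, ratio 0.942). Control replicate 1 had the most recovered reads (45117528, ratio 0.857).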

How the results depend on the processing

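The count of 2 genes that fell was 2 or 3 under pseudocounts of 0.5 and 5, both other filters, TMM and equal-total scaling, edgeR and DESeq2. It was 0 with limma without the trend, 0 with each gene's own variance and 0 when a change over 1.3-fold was also asked for. Leaving out 1 mouse gave 0 to 8. It was 0 without control replicate 1, control replicate 4 or AF1 peptide replicate 3, 1 without control replicate 2 or AF1 peptide replicate 4, 7 without AF1 peptide replicate 1 and 8 without control replicate 3 (Acadm, Acads, Acad11, Etfdh, Hadhb, Scp2, Crot and Ehhadh), where 539 of all 15989 genes fell (3.37%). The count of genes that rose was 0 to 1 (Pex11a without AF1 peptide replicate 1, Acad10 without AF1 peptide replicate 4). Over all genes, the 484 that fell and 506 that rose became 769 and 129 with equal totals, where the median of all genes was -0.099 in place of -0.0083, and 304 and 286 with the 1.3-fold rule. They ranged from 255 (without control replicate 2) to 876 (without AF1 peptide replicate 1) and from 285 to 732 (the same mice) when 1 mouse was left out. With equal totals the sign turned for Cpt2 (-0.00060), Eci2 (-0.082), Phyh (-0.048) and Amacr (-0.023). For Acox3 and Pex11a it turned with edgeR (0.0035 and 0.037) and with DESeq2 (0.0059 and 0.041). When 1 mouse was left out, changes of either sign were found for Crat (-0.30 to 0.031), Acadsb (-0.10 to 0.36), Acaa2 (-0.23 to 0.024), Acox3 (-0.042 to 0.10), Acaa1a (-0.18 to 0.021), Acaa1b (-0.31 to 0.051), Decr2 (-0.19 to 0.068), Eci2 (-0.045 to 0.079), Phyh (-0.10 to 0.22), Hacl1 (-0.12 to 0.34), Amacr (-0.085 to 0.20) and Pex11a (-0.39 to 0.35). The medians of the mitochondrial and of the peroxisomal genes were negative under every alternative and moved by less than the spread between mice. The cause of these changes was not tested.

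Both groups carry replicate numbers 1 to 4 for different mice. Deviations from the group means correlated at 0.235, 0.0238, 0.216 and -0.0640 between mice of the same number and at -0.272 to 0.137 between others, and 4 of 8 mice correlated best with their own number, and as 2 of the 4 same-number correlations were close to or below 0 the mice were not treated as pairs. With a replicate block, 6 of the 35 genes fell (Crot, Ehhadh, Acadm, Acads, Etfdh and Acox2), beside 647 of all genes (4.05%). Depth was at least 23031880 reads per mouse, and the part of counting error in the intervals of single genes was not measured.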

Other observations

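Outside the 35 genes, some genes of the related lists passed only in the fit without AF1 peptide replicate 1 (limma, unadjusted p under 0.05). In that fit 5.48% of all tested genes fell and 4.58% rose. Mlycd, whose product removes malonyl-CoA, the inhibitor of Cpt1a, fell by 0.50 on the log2 scale, and the carnitine transporter gene Slc22a5 rose by 0.22. Of the peroxisome list, Pex7 (-0.37), which imports a small set of matrix proteins including Phyh, the protease gene Lonp2 (-0.42) and the glycolate oxidase gene Hao1 (-0.49) fell. Of the PPARα list, the ω-hydroxylase gene Cyp4a32 rose by 0.88 and the pantetheinase gene Vnn1 by 0.30. None of these passed after adjustment, and whether any of them differed between the fits was not tested.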
